A study of Homo sapiens with 6 samples.

Results

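The 9 genes described here encode enzymes that make serine from a glycolytic intermediate and pass carbon from serine to folate in mitochondria, together with their cytosolic counterparts. They were chosen by gene symbol as members of the pathway of serine synthesis and folate-bound carbon, with earlier results of these data known. The other gene lists below were chosen with the same knowledge, so counts set against all tested genes are descriptive. All 9 members were found among the 17687 genes of the series, and all 9 passed the filter on low counts that left 14005 genes for testing.

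RNA was sequenced from KHM-5M cells, an established line from an anaplastic thyroid cancer, in 3 groups of 2 libraries: cells given PBS (control), cells given sodium selenite (SS), and cells given SS with the antioxidant N-acetylcysteine (SS+NAC). No group received NAC alone, so NAC by itself and the combination cannot be told apart. The libraries held between 17645545 and 23810056 expected counts. The replicates of each group differed by more than counting noise, with a chi-square per degree of freedom of 3.16 in control, 7.46 in SS and 12.33 in SS+NAC. The methods call the libraries biological replicates, but nothing says that they came from separate cultures, so p-values measure only the spread between these libraries, which may be technical.

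Serine synthesis branches off glycolysis: PHGDH oxidizes phosphoglycerate, PSAT1 adds an amino group taken from glutamate, and PSPH removes the phosphate. In mitochondria SHMT2 then moves carbon from serine to tetrahydrofolate and leaves glycine, MTHFD2 and MTHFD1L carry that carbon on to formate, and ALDH1L2 can instead oxidize it to carbon dioxide while making NADPH. SHMT1 and MTHFD1 work in the cytosol, where the carbon feeds purine and thymidylate synthesis, and several genes of the pathway are known targets of the stress-induced transcription factor ATF4.

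The members differed widely in level. In TPM, a unit that divides by transcript length and gives all libraries the same total, SHMT2 was highest in every group, at 352 ± 6.04 TPM (SD, n = 2) in control, and ALDH1L2 was lowest, at 10.2 ± 0.488 TPM. In TPM the level of SHMT2 in control was above that of 97.2% of the tested genes and the level of ALDH1L2 above that of 41.1%. PHGDH came next, with 198 ± 3.77 TPM in control, ahead of MTHFD1 (176 ± 7.62 TPM), PSAT1 (138 ± 1.83 TPM) and MTHFD2 (119 ± 4.20 TPM). SHMT1 (64.6 ± 1.29 TPM) and MTHFD1L (63.3 ± 1.38 TPM) lay within their spread of each other, and PSPH had 20.8 ± 0.757 TPM. In SS+NAC, PSAT1 (190.3 ± 9.26 TPM) and MTHFD2 (175 ± 23.5 TPM) stood in places 3 and 4, ahead of MTHFD1 (168 ± 7.33 TPM), which held place 3 in control. The TPM of the 9 genes came to a total of 1138 and 1144 in control, 1133 and 1116 in SS, and 1338 and 1371 in SS+NAC.

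Transcript length has to be read beside every comparison with SS. Over 14004 tested genes, taken as a description because genes are no replicates, log2 fold change and effective length had a Spearman's rho of -0.68 in SS against control and -0.64 in SS against SS+NAC, but -0.037 in SS+NAC against control. ALDH1L2, at 7.32 kb, was longer than 92.9% of the tested genes, whose median was 3.05 kb. The other members lay between 2.02 kb (PHGDH) and 3.48 kb (MTHFD1). In SS against control, the trend of all genes at the length of ALDH1L2 was -0.44 on the log2 scale, and at the length of PHGDH it was 0.17. Each member's fold change is therefore also given from a fit with a length offset, a correction that removes this trend from each library. TPM is no such correction, because it divides each gene by its length and leaves a trend that differs between libraries. With the offset rho was 0.00025 in SS against control, 0.019 in SS against SS+NAC and -0.00077 in SS+NAC against control.

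**Figure D1:**
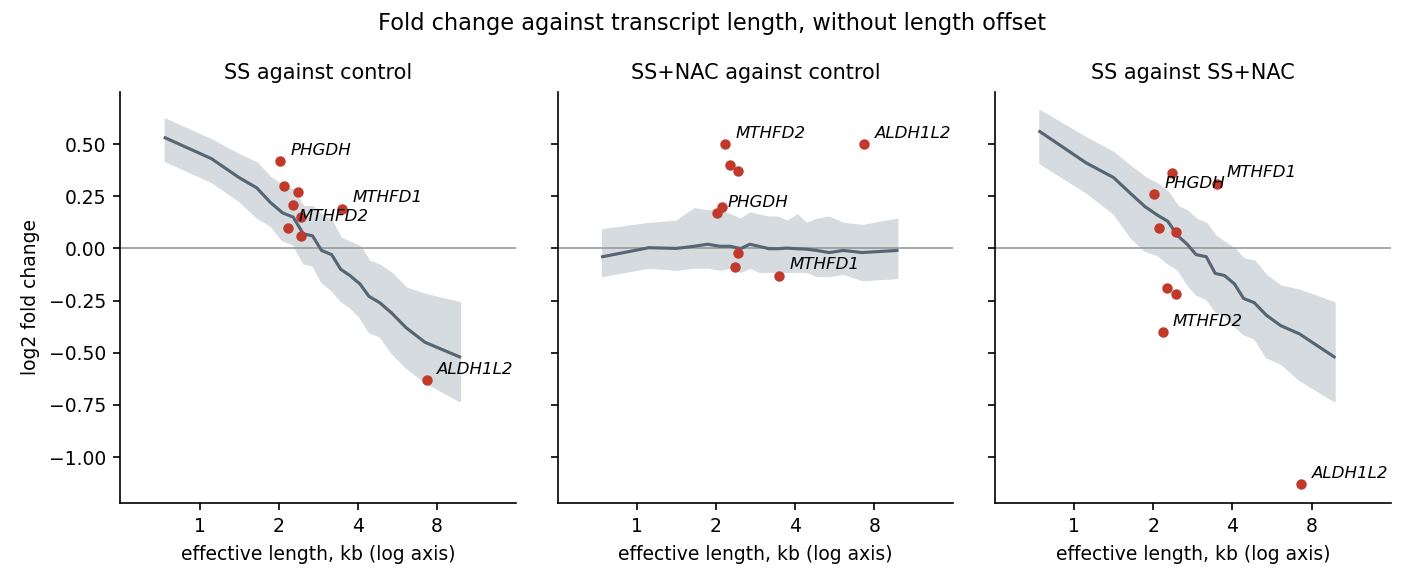
Log2 fold change against effective transcript length in the 3 comparisons, without the length offset. The line and band are the median and quartiles of tested genes in bins of length, and the marked points are the 9 members, with ALDH1L2 at the long end.

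A gene is called here when its p-value, adjusted over all 14005 tested genes, is at most 0.05. In SS+NAC compared to control, 3 of the 9 members were called, all of them higher: PSAT1, MTHFD2 and ALDH1L2. The same comparison called 2.01% of all tested genes (282), with 1.36% called higher, and the length offset left the same 3 members and 2.01% of all tested genes called. The median log2 fold change was 0.20 for the members and -0.0024 for all tested genes. For 7 members the libraries of the groups did not overlap, as for 47.6% of all tested genes. The count rests on both control libraries. Without control replicate 1, edgeR called 0 members and 98 genes, and without control replicate 2 it called 0 members and 99 genes, with 4 members at an unadjusted p under 0.05 each time. Without SS+NAC replicate 1 it called 3 members and 1086 genes. DESeq2 on all 6 libraries called 3 members and 311 genes.

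In SS compared to control, 5 members were called: PHGDH, PSAT1, SHMT1 and SHMT2 were higher and ALDH1L2 was lower. Of all tested genes 40.0% were called (5609), 18.6% higher and 21.4% lower. For 8 members the groups did not overlap, as for 73.2% of all tested genes. With the length offset edgeR called 0 of the 9 members and 9.23% of all tested genes (1293; 4.21% higher and 5.03% lower), and 2 members, PHGDH and MTHFD1, had an unadjusted p under 0.05. DESeq2, run without the offset, called 5 members and 4611 genes. The median log2 fold change of the members was 0.19 without and 0.09 with the offset, against 0.003 and 0.01 for all tested genes. Without control replicate 1 the number of members called was 1 and of genes 3118, without control replicate 2 it was 2 and 3628, and without SS replicate 2 it was 2 and 3164.

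In SS compared to SS+NAC, 6 members were called, against 42.7% of all tested genes (5985): PHGDH, SHMT1 and MTHFD1 were higher in SS, and PSAT1, MTHFD2 and ALDH1L2 were lower. Of all tested genes 19.6% were higher and 23.1% lower. For 8 members the groups did not overlap, as for 70.4% of all tested genes. With the length offset there were again 6, against 14.5% of all tested genes (2026; 7.04% higher and 7.43% lower): PHGDH was lost, PSPH was gained and 5 were called both ways. DESeq2, run without the offset, called 5 members and 4818 genes. The median log2 fold change of the members was 0.08 without and -0.04 with the offset, against -0.03 and 0.01 for all tested genes. Without SS replicate 2 the number of members called was 2 and of genes 3250, and without SS+NAC replicate 2 it was 3 and 5043. The 3 comparisons share libraries with each other, so their values are set side by side and are not independent.

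**Figure D2:**
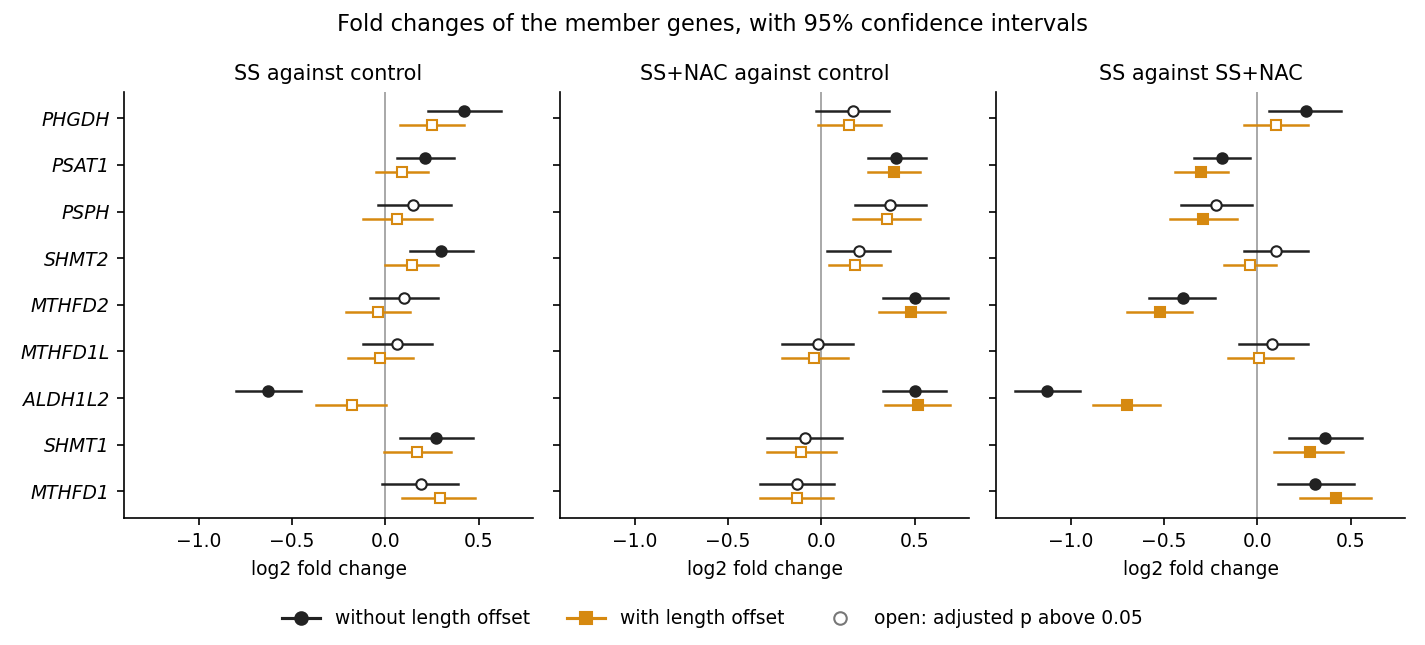
Log2 fold change of each member with its 95% confidence interval in the 3 comparisons, without and with the length offset, with filled symbols for an adjusted p of at most 0.05. In SS+NAC against control both fits call PSAT1, MTHFD2 and ALDH1L2, and in SS against control the fit with the offset calls no member.

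PHGDH, which catalyses the entry step of serine synthesis, lies at chr1:119648411-119744226 on the plus strand (GRCh38, GENCODE release 29). Its expected counts relative to library size (CPM, scaled between libraries by TMM) were 198 and 208 in control, 258 and 287 in SS, and 243 and 213 in SS+NAC. In CPM both SS libraries were above all others, and both SS+NAC libraries were above both control libraries. In SS it was higher than in control by a log2 fold change of 0.42 ± 0.09 (SE; adjusted p = 0.0039), which became 0.25 with the length offset (adjusted p = 0.076) and 0.39 without control replicate 1 (adjusted p = 0.052), over a range of adjusted p from 7.5e-05 to 0.15 in all alternatives. In SS+NAC the log2 fold change against control was 0.17 ± 0.09 (95% confidence interval -0.03 to 0.36, adjusted p = 0.38), and 0.15 with the offset. SS was higher than SS+NAC by 0.26 ± 0.09 (adjusted p = 0.037), and by 0.10 with the offset (adjusted p = 0.40; 0.0051 to 0.52 in all alternatives). That call was also lost without control replicate 1 (0.26), SS replicate 2 (0.18) or SS+NAC replicate 2 (0.17). On all 6 libraries it was lost with no filter on low counts (0.25, adjusted p = 0.056). A fit with the replicate number as a block lost it too (0.26, adjusted p = 0.077).

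PSAT1, the aminotransferase of the pathway, lies at chr9:78297143-78330093 on the plus strand. It had 155 and 161 CPM in control, 184 and 183 CPM in SS, and 209 and 209.7 CPM in SS+NAC. The 3 groups did not overlap, with control lowest and SS+NAC highest. Compared to control, SS+NAC was higher by a log2 fold change of 0.40 ± 0.07 (adjusted p = 0.016), and by 0.39 with the offset (adjusted p = 0.013; 0.00041 to 0.23 in all alternatives). The call was lost without control replicate 1 (0.37) or control replicate 2 (0.43). For SS against control, 0.21 ± 0.07 (adjusted p = 0.033) became 0.09 with the offset (adjusted p = 0.43; 0.018 to 0.61 in all alternatives). That call was lost without control replicate 1 (0.18), control replicate 2 (0.27), SS replicate 1 (0.21) or SS replicate 2 (0.21). On all 6 libraries it was lost with no filter on low counts (0.21, adjusted p = 0.052). With the replicate number as a block it was lost too (0.21, adjusted p = 0.096). SS was lower than SS+NAC by -0.19 ± 0.07 (adjusted p = 0.047), and by -0.30 with the offset (adjusted p = 0.014; 0.014 to 0.18 in all alternatives). Without the offset this last call is close to the threshold and was lost when any 1 of the 6 libraries was left out, at values of -0.19 to -0.17. DESeq2 on all 6 libraries also lost it (-0.17, adjusted p = 0.098), as did its size factors in edgeR (-0.17, adjusted p = 0.087). It was lost with no filter on low counts (-0.20, adjusted p = 0.059) and with the replicate block (-0.19, adjusted p = 0.13). With only the 4 compared libraries it was lost as well (-0.18, adjusted p = 0.12).

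PSPH, the phosphatase of the last step, lies at chr7:56011051-56051604 on the minus strand. It had 24.8 and 26.5 CPM in control, 27.2 and 30 CPM in SS, and 34.0 and 32.6 CPM in SS+NAC. The SS+NAC libraries were above all others, but against control the log2 fold change of 0.37 ± 0.09 missed the threshold (adjusted p = 0.063), as it did with the offset (0.35, adjusted p = 0.062; 0.052 to 0.40 in all alternatives). Between SS and SS+NAC the value was -0.22 ± 0.09 (adjusted p = 0.062), and with the offset it was -0.29 and passed (adjusted p = 0.039; 0.039 to 0.31 in all alternatives). With the offset and the replicate number as a block the value was again -0.29 but missed the threshold (adjusted p = 0.077). For SS against control it was 0.15 ± 0.09 (95% confidence interval -0.04 to 0.35, adjusted p = 0.20), and 0.06 with the offset.

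The scale matters for these genes in SS. In TPM, PHGDH had 195 and 200.4 in control, 217 and 219.9 in SS, and 237 and 223 in SS+NAC, so that SS+NAC and not SS was highest. In TPM, PSAT1 had 137 and 139 in control but 139 and 126 in SS, and PSPH had 20.2 and 21.3 in control but 18.3 and 19.2 in SS. On this scale the PSAT1 groups overlapped and PSPH had lower values in SS than in control, whereas in CPM both genes had higher values in each SS library. On both scales the SS+NAC libraries were the highest for PSAT1 and PSPH.

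**Figure D3:**
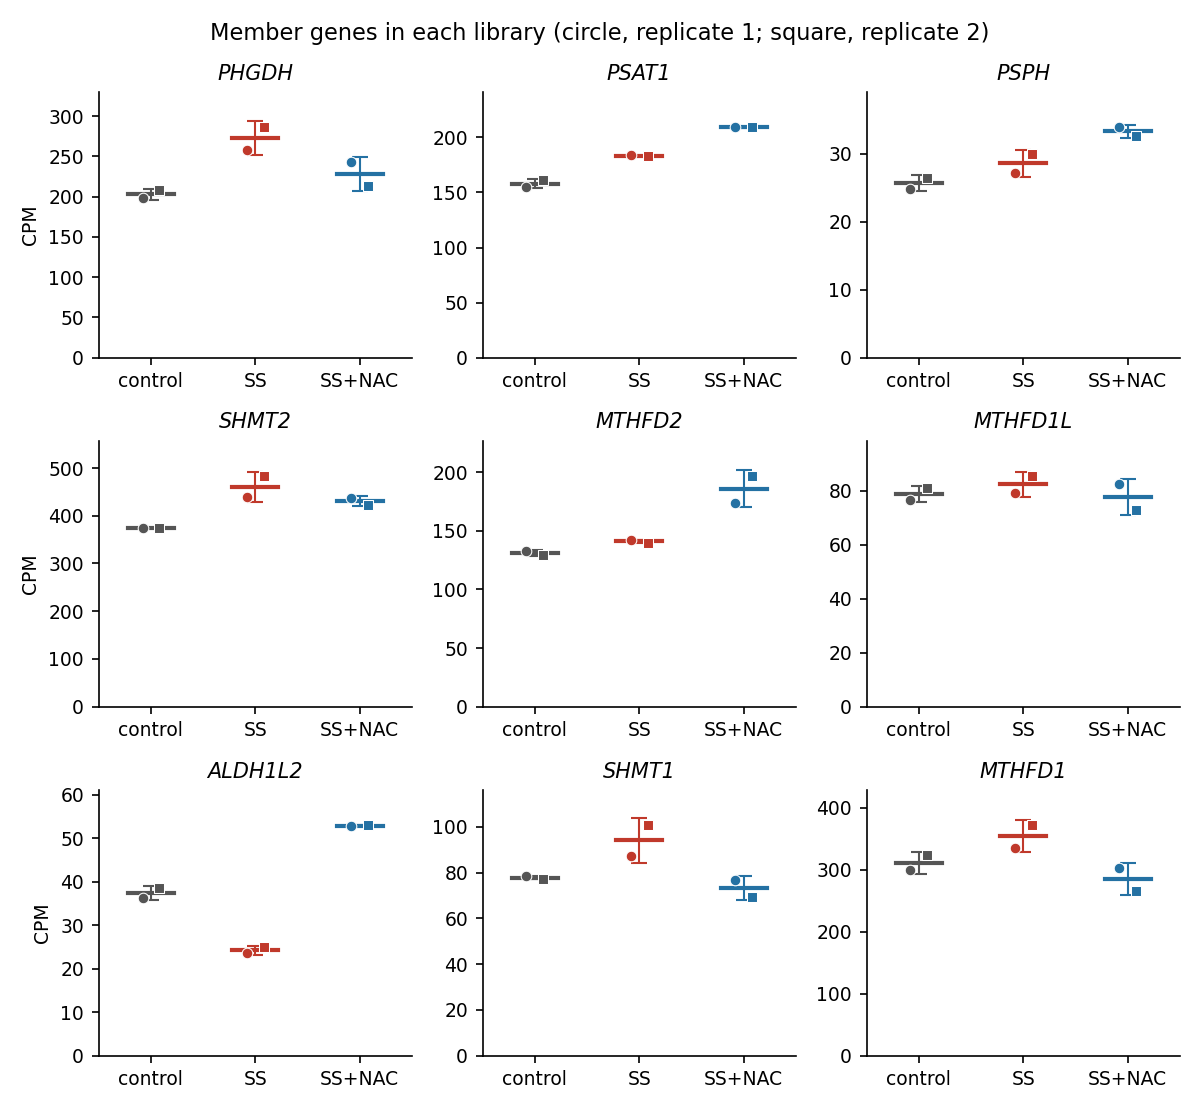
CPM of the 9 members in each library, with every axis starting at 0 and bars for the mean ± SD of 2 libraries. ALDH1L2 is lowest in SS and highest in SS+NAC, and PSAT1 and MTHFD2 are highest in SS+NAC.

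Among the mitochondrial enzymes, SHMT2, which splits serine into glycine and a folate-bound carbon, lies at chr12:57229327-57234935 on the plus strand. It had 375 CPM in both control libraries, 439 and 484 CPM in SS, and 438 and 423 CPM in SS+NAC. In CPM every treated library was above control, and SS replicate 1 lay just above the highest SS+NAC library. In TPM it had 356 and 348 in control, 358 and 357 in SS, and 411 and 427 in SS+NAC. On that scale SS lay just above control, and both SS+NAC libraries were above all others. SS was higher than control by 0.30 ± 0.08 on the log2 scale (adjusted p = 0.012), and by 0.14 with the offset (adjusted p = 0.20; 0.0014 to 0.38 in all alternatives). That call was also lost without control replicate 1 (0.30), control replicate 2 (0.33) or SS replicate 2 (0.22). SS+NAC against control gave 0.20 ± 0.08 (95% confidence interval 0.03 to 0.37, adjusted p = 0.25), and 0.18 with the offset. SS against SS+NAC gave 0.10 ± 0.08 (adjusted p = 0.33), and -0.04 with the offset.

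MTHFD2, the mitochondrial dehydrogenase and cyclohydrolase, lies at chr2:74198562-74217565 on the plus strand. It had 133 and 129 CPM in control, 142 and 139.7 CPM in SS, and 174 and 197 CPM in SS+NAC. In CPM the SS+NAC libraries stood above the other 4, which lay close together. In TPM it had 122 and 116 in control, 111 and 100.1 in SS, and 159 and 192 in SS+NAC. On that scale both SS libraries were below both control libraries, whereas in CPM both were above. SS+NAC was higher than control by 0.50 ± 0.08 on the log2 scale, a 1.42-fold difference (adjusted p = 0.011), and by 0.48 with the offset (adjusted p = 0.011; 3.3e-05 to 0.13 in all alternatives). The call was lost without control replicate 1 (0.52) or control replicate 2 (0.48). SS was lower than SS+NAC by -0.40 ± 0.08 (adjusted p = 0.0027), and by -0.52 with the offset (adjusted p = 0.0030), a call kept in 14 alternatives (adjusted p 0.00014 to 0.027) but not by Bonferroni. For SS against control the log2 fold change was 0.10 ± 0.08 (95% confidence interval -0.08 to 0.28, adjusted p = 0.34), and -0.04 with the offset.

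ALDH1L2, the mitochondrial formyltetrahydrofolate dehydrogenase, lies at chr12:105019784-105084577 on the minus strand. It had 36.3 and 38.5 CPM in control, 23.5 and 25 CPM in SS, and 52.8 and 53.1 CPM in SS+NAC. The 3 groups did not overlap, and SS and SS+NAC lay on opposite sides of control. In TPM it had 9.82 and 10.5 in control, 5.42 and 5.4 in SS, and 14.4 and 15.2 in SS+NAC. The groups were thus in the same order on that scale, again without overlap, but TPM does not remove the length trend. SS+NAC was higher than control by 0.50 ± 0.08 on the log2 scale (adjusted p = 0.0087), and by 0.52 with the offset (adjusted p = 0.0089; 0.0021 to 0.12 in all alternatives). The call was lost without control replicate 1 (0.46) or control replicate 2 (0.55). SS was lower than control by -0.63 ± 0.08 (adjusted p = 0.00038), a call kept without each library in turn, but with the offset the value was -0.18 and missed the threshold (adjusted p = 0.20; 4.5e-06 to 0.30 in all alternatives). SS was lower than SS+NAC by -1.13 ± 0.08, or 0.458-fold (adjusted p = 3.7e-05), and by -0.70, or 0.615-fold, with the offset (adjusted p = 0.0011). This call was kept in 14 alternatives (adjusted p 1.4e-17 to 0.0016) and by Bonferroni.

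MTHFD1L, which releases formate in mitochondria, lies at chr6:150865549-151101887 on the plus strand. It had 76.6 and 80.8 CPM in control, 79.1 and 85.5 CPM in SS, and 82.4 and 72.9 CPM in SS+NAC, so that all 3 groups overlapped in CPM. In TPM it had 62.3 and 64.2 in control, 56.6 and 55.5 in SS, and 67.1 and 63.7 in SS+NAC, with both SS libraries below the other 4. Its log2 fold changes were 0.06 ± 0.08 for SS against control (adjusted p = 0.59), -0.02 ± 0.08 for SS+NAC against control (adjusted p = 0.93) and 0.08 ± 0.08 for SS against SS+NAC (adjusted p = 0.46). With the offset they were -0.03, -0.04 and 0.01. Without it the 95% confidence intervals reached from -0.21 to 0.27 over the 3 comparisons.

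The cytosolic enzymes SHMT1 and MTHFD1 had their highest CPM in SS. SHMT1 lies at chr17:18327860-18363563 on the minus strand and had 78.4 and 77.3 CPM in control, 87.2 and 101 CPM in SS, and 77.0 and 69.4 CPM in SS+NAC. MTHFD1, which makes and uses formyl-tetrahydrofolate, lies at chr14:64388031-64463457 on the plus strand and had 299 and 324 CPM in control, 336 and 373 CPM in SS, and 303 and 266 CPM in SS+NAC. In CPM the SS+NAC libraries of SHMT1 lay just below control, and those of MTHFD1 overlapped control. In TPM, SHMT1 had 65.5 and 63.6 in control, 63.2 and 66.9 in SS, and 63.9 and 62.4 in SS+NAC, and the groups overlapped. In TPM, MTHFD1 had 171 and 182 in control, 164 and 166 in SS, and 173 and 162 in SS+NAC, with SS below control and overlapping SS+NAC.

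SHMT1 was higher in SS than in SS+NAC by 0.36 ± 0.09 on the log2 scale (adjusted p = 0.0079), and by 0.28 with the offset (adjusted p = 0.049; 0.0012 to 0.097 in all alternatives), but the call was lost without SS replicate 2 (0.25). With offset and replicate block together, SS against SS+NAC gave 0.28 again but missed the threshold (adjusted p = 0.096). Against control, SS gave 0.27 ± 0.09 (adjusted p = 0.031), and 0.17 with the offset (adjusted p = 0.23; 0.0075 to 0.35 in all alternatives). That call was also lost without control replicate 1 (0.28), control replicate 2 (0.29) or SS replicate 2 (0.16). With the replicate number as a block the value was again 0.27 but missed the threshold (adjusted p = 0.059). MTHFD1 was higher in SS than in SS+NAC by 0.31 ± 0.09 (adjusted p = 0.018), and by 0.42 with the offset (adjusted p = 0.013; 0.0019 to 0.14 in all alternatives). That call was lost without SS replicate 2 (0.24) or SS+NAC replicate 2 (0.22). For SS against control, MTHFD1 had 0.19 ± 0.09 (adjusted p = 0.13), and 0.29 with the offset (adjusted p = 0.07; 0.06 to 0.53 in all alternatives). In SS+NAC against control, SHMT1 had -0.09 ± 0.09 (adjusted p = 0.66), or -0.11 with the offset, and MTHFD1 had -0.13 ± 0.09 (adjusted p = 0.51), or -0.13 with the offset.

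Ratios of TPM within a library describe these libraries without a test, and 7 were computed, 2 of them of a mitochondrial over a cytosolic enzyme. SHMT2 over SHMT1 in TPM was 5.44 and 5.46 in control, 5.67 and 5.34 in SS, and 6.43 and 6.83 in SS+NAC. MTHFD2 over MTHFD1 in TPM was 0.711 and 0.636 in control, 0.678 and 0.604 in SS, and 0.918 and 1.18 in SS+NAC. PSAT1 over PHGDH in TPM was 0.701 and 0.696 in control, 0.641 and 0.573 in SS, and 0.774 and 0.882 in SS+NAC. In these 3 ratios both SS+NAC libraries were above the other 4, as in those of MTHFD2 over MTHFD1L and ALDH1L2 over SHMT2. The other 2 did not follow this pattern. ALDH1L2 over MTHFD2 in TPM was 0.0808 and 0.0909 in control, 0.0486 and 0.0539 in SS, and 0.0906 and 0.079 in SS+NAC. MTHFD2 over PSAT1 in TPM was 0.889 and 0.829 in control, 0.802 and 0.795 in SS, and 0.863 and 0.974 in SS+NAC.

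**Figure D4:**
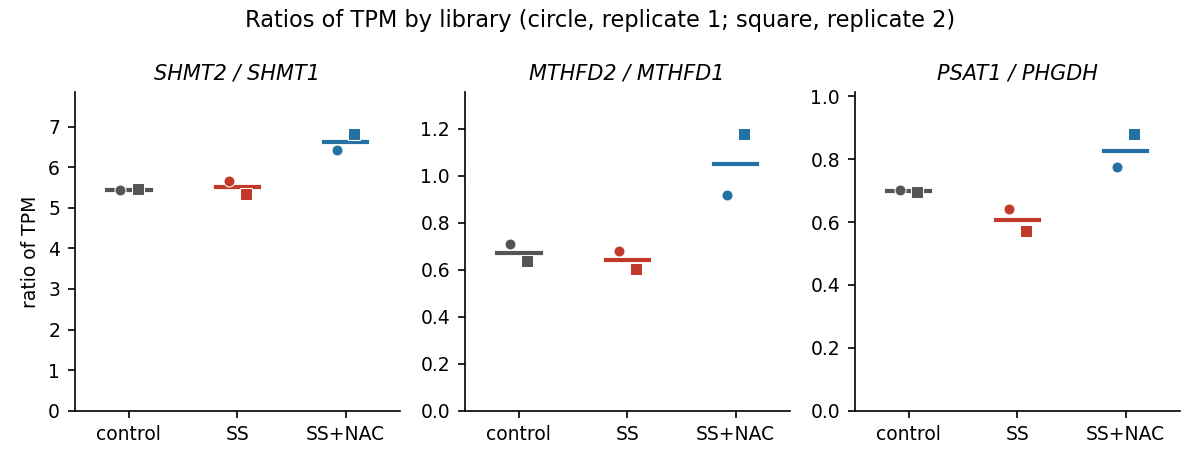
Ratios of TPM in each library for SHMT2 over SHMT1, MTHFD2 over MTHFD1 and PSAT1 over PHGDH. Both SS+NAC libraries are above the other 4 in each of these 3 ratios.

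Reads of some members can be shared with other genes. In GENCODE release 29, 5 members have annotated pseudogenes: MTHFD2 has 7, PSAT1 has 4, and PSPH, SHMT1 and MTHFD1 have 1 each, so their values are uncertain to that extent. The expected counts of PSAT1, SHMT2 and MTHFD2 were whole numbers in all 6 libraries, at the 2 decimals deposited, and those of the other 6 members were not. On the opposite strand, exons of SLC4A5 cover 27.2% of the exon bases of MTHFD2, and whether the counting used the strand is not stated. SLC4A5 had between 4.15 and 8 CPM. Unmeasured opposite-strand genes cover 8.83% of the exon bases of SHMT2 (AC137834.2), 8.06% of MTHFD1 (AL122035.2) and 6.06% of MTHFD2 (AC006030.1). Exons of SMCR8 (22.5 to 42.6 CPM) cover 2.69% of those of SHMT1, and exons of C12orf45 (9.26 to 14.1 CPM) cover 1.70% of those of ALDH1L2, each on the opposite strand. Exons of ZBTB25 (5.3 to 7.86 CPM) cover 1.9% of those of MTHFD1, also on the opposite strand.

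Genes that followed PSAT1, MTHFD2 and PHGDH most closely were ranked by Pearson's r of log2 CPM over the 6 libraries, among 9528 genes whose mean was 10 CPM or more, as a description only. The ranking was made without the length offset, so it carries the length trend of the SS libraries. For PSAT1 they were SQSTM1 (r = 0.997), FKBP10 (0.995), SEZ6L2 (0.989), ATF6B (0.986) and OSGIN1 (0.986). SQSTM1, which encodes the autophagy receptor p62, had means of 439.6 CPM in control, 586 in SS and 801 in SS+NAC. For MTHFD2 they were CD55 (0.989), TRIM16 (0.989), ZFAND3 (0.988), NPTN (0.986) and TSKU (0.986), all with their highest mean in SS+NAC. For PHGDH they were NELFA (0.998), RHBDD2 (0.995), RCN3 (0.995), SRD5A3 (0.994) and AKIRIN2 (0.994), all with their highest mean in SS.

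Of 21 genes in a list of ATF4 and other ATF4 targets, 20 were tested, and FGF21 had a mean under 1 CPM in every group (called low from here on). In SS+NAC compared to control 13 were called, all higher, and 12 with the length offset, against 2.01% of all tested genes each way, with a median log2 fold change of 0.86 against -0.0024 for all tested genes. The largest were DDIT4, an inhibitor of mTOR signaling (2.38 ± 0.17, adjusted p = 4.2e-05), SLC7A11, the cystine carrier (2.13 ± 0.11, adjusted p = 2.4e-06), and CHAC1, which degrades glutathione (1.80 ± 0.10, adjusted p = 3e-06). ATF3 (1.61), SESN2 (1.60), DDIT3 (1.11), TRIB3 (0.93), CEBPB (0.88), VLDLR (0.84), PCK2 (0.73), ASNS (0.65) and SLC3A2 (0.54) were also called both ways. Of these, SLC3A2 lost its call without control replicate 1 (0.45) and VLDLR without control replicate 2 (0.80). ATF4 itself had 593 ± 22.1 CPM in control, 806 ± 7.88 in SS and 719 ± 12.8 in SS+NAC. Its log2 fold change was 0.28 ± 0.08 in SS+NAC against control (adjusted p = 0.10) and 0.44 ± 0.08 in SS against control (adjusted p = 0.0013), the latter 0.12 with the offset (adjusted p = 0.25).

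In SS compared to control, 13 genes of this list were called, 10 higher and 3 lower, against 40.0% of all tested genes. With the offset 5 were called, all higher, against 9.23% of all tested genes. The 3 lower ones lost their calls with it: SLC7A11 went from -0.58 to -0.05, VLDLR from -0.47 to -0.24 and SLC7A5 from -0.38 to -0.15. Without the offset, VLDLR also lost its call without control replicate 1 (-0.43), control replicate 2 (-0.48) or SS replicate 2 (-0.40), and SLC7A5 without control replicate 2 (-0.30), SS replicate 1 (-0.37) or SS replicate 2 (-0.39). For the 5 kept, log2 fold changes without and with the offset were 1.35 and 1.22 for ATF3, 1.07 and 0.83 for DDIT4, 1 and 0.57 for DDIT3, 0.65 and 0.38 for CHAC1, and 0.56 and 0.40 for CEBPB. The median was 0.38 without and 0.19 with the offset, against 0.003 and 0.01 for all tested genes. In SS compared to SS+NAC, 14 were called, 12 of them lower in SS, against 42.7% of all tested genes, and 13 with the offset, all lower, against 14.5%. Without SS replicate 2 and without the offset the count was 8. The 11 called both ways included SLC7A11 (-2.71 without and -2.20 with the offset), SESN2 (-1.51 and -1.39), DDIT4 (-1.31 and -1.53), VLDLR (-1.31 and -1.08), CHAC1 (-1.14 and -1.40) and NUPR1 (-1.03 and -1.51). The others were GDF15 (-0.84 and -1.15), TRIB3 (-0.82 and -0.94), SLC7A5 (-0.78 and -0.55), PCK2 (-0.42 and -0.50) and CEBPB (-0.32 and -0.45). ASNS (-0.37, adjusted p = 0.011) and DDIT3 (-0.55, adjusted p = 0.016) were called with the offset only. Those called higher in SS were ATF5 (0.29, adjusted p = 0.031) and PYCR1 (0.26, adjusted p = 0.025). With the offset they had 0.15 and 0.06 and were not called. Without the offset, NUPR1 lost its call without SS replicate 1 (-0.95), SS replicate 2 (-1.10), SS+NAC replicate 1 (-1.05) or SS+NAC replicate 2 (-1.01). GDF15 lost it without SS replicate 1 (-0.90), SS replicate 2 (-0.78) or SS+NAC replicate 2 (-0.58), and CEBPB without SS replicate 2 (-0.28).

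**Figure D5:**
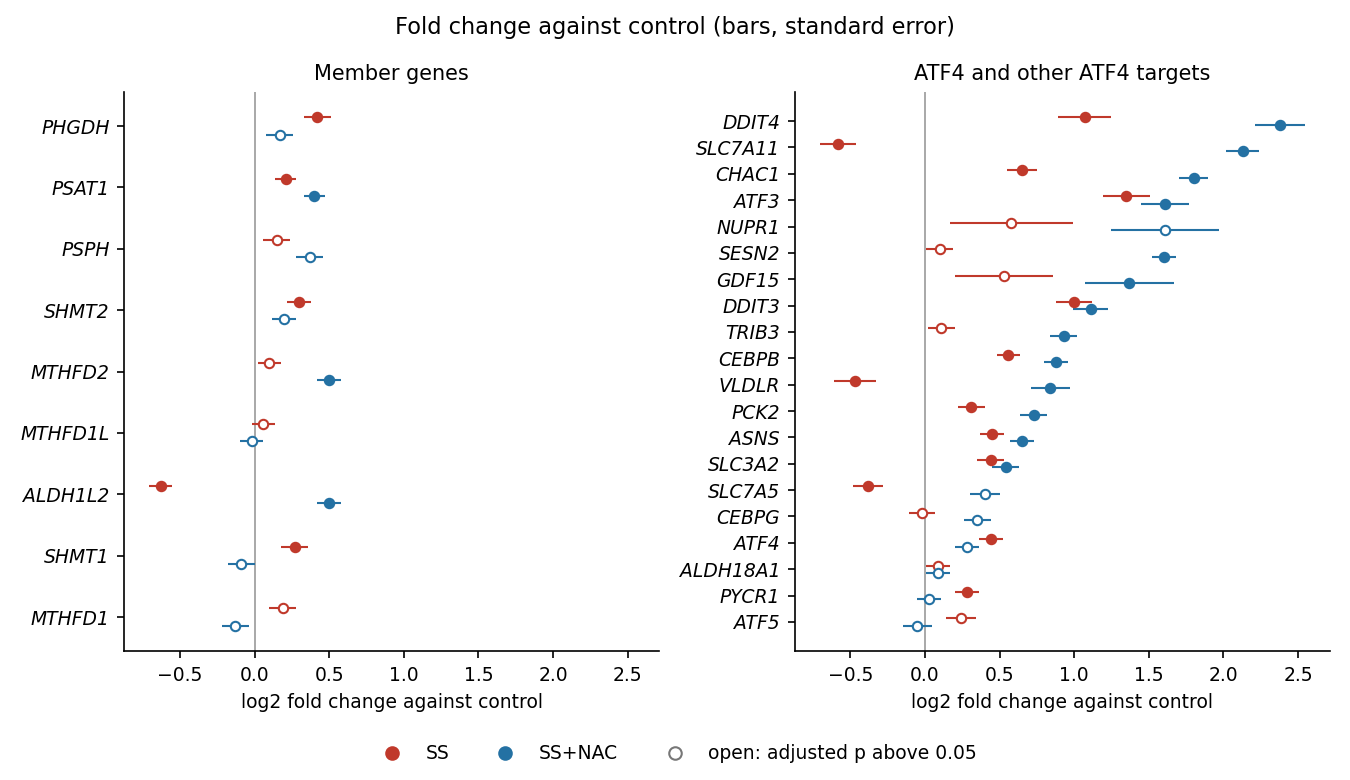
Log2 fold change against control, with its standard error, of the members and of 20 tested genes of the ATF4 list, in SS and in SS+NAC, without the length offset. Filled points have an adjusted p of at most 0.05, and SLC7A11, VLDLR and SLC7A5 are lower in SS here but are not called with the offset.

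Carriers of serine and glycine were set in a list of 12 genes with the glycine cleavage system, of which 11 were tested. GLDC and SDS were low, and SDS was not tested. In SS+NAC against control 2 were called, both higher and both also with the offset, against 2.01% of all tested genes each way. The list median was 0.02, and that of all tested genes -0.0024. SLC1A4, a carrier of neutral amino acids including serine, had 42.3 ± 2.71 CPM in control and 62.3 ± 3.27 in SS+NAC (0.56 ± 0.08, adjusted p = 0.0058), and SLC6A9, a glycine carrier, had 15.7 ± 0.539 and 26.5 ± 2 CPM (0.75 ± 0.12, adjusted p = 0.0094). Without control replicate 1 neither passed (0.49 and 0.72). In SS against SS+NAC 4 of the 11 were called, against 42.7% of all tested genes, and 3 with the offset, against 14.5%. SS was lower than SS+NAC for SLC1A4 (-0.58 ± 0.08, adjusted p = 0.0005; -0.36 with the offset) and SLC6A9 (-0.91 ± 0.12, adjusted p = 0.0004; -0.88 with the offset). SFXN3, of the mitochondrial serine carrier family, was higher in SS than in SS+NAC (0.32 ± 0.08, adjusted p = 0.011, and 0.38 with the offset), a call lost without SS replicate 2 (0.27) or SS+NAC replicate 2 (0.22). In SS against control edgeR called 4 genes, against 40.0% of all tested genes, and 0 with the offset, against 9.23%, where 3 had an unadjusted p under 0.05, and DESeq2 without the offset called 3. Without the offset the count was 2 without control replicate 1 or SS replicate 1, 1 without control replicate 2, and 0 by edgeR without SS replicate 2, with 4 at an unadjusted p under 0.05. The largest of the 4 were AMT, from few reads at 0.494 CPM in control and 1.18 in SS (1.24 ± 0.38, adjusted p = 0.024, and 1.08 with the offset), lost without control replicate 1 (1), control replicate 2 (1.62), SS replicate 1 (1.19) or SS replicate 2 (1.29), and SDSL (0.54 ± 0.13, adjusted p = 0.0079, and 0.19 with the offset), lost without control replicate 2 (0.51) or SS replicate 2 (0.51).

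In the methionine cycle and transsulfuration, where serine is joined to homocysteine, 8 genes were tested and BHMT, MAT1A and GNMT were low. Of the 8, 2 were called in SS+NAC against control (2.01% of all tested genes), 2 in SS against control (40.0%) and 5 in SS against SS+NAC (42.7%), the last of which became 2 with the offset (14.5%). CTH, which makes cysteine, had 3.52 ± 0.0847 CPM in control, 3.70 ± 0.134 in SS and 11.3 ± 0.633 in SS+NAC. It was higher in SS+NAC than in control (1.68 ± 0.14, adjusted p = 0.00013) and lower in SS than in SS+NAC (-1.60 ± 0.14, adjusted p = 0.00011), with 1.66 and -1.66 with the offset. MAT2A, which makes S-adenosylmethionine, was higher in SS+NAC than in control (0.37 ± 0.07, adjusted p = 0.031). Without control replicate 1 (0.35) or control replicate 2 (0.39) the value was similar but missed the threshold (adjusted p = 0.33 and 0.28). It was lower in SS than in SS+NAC (-0.38 ± 0.07, adjusted p = 0.0023, and -0.34 with the offset). In SS against control edgeR called MTR (-0.48 ± 0.08, adjusted p = 0.0015) and AHCY (0.31 ± 0.08, adjusted p = 0.0083). With the offset MTR turned to 0.06 and AHCY had 0.17, and edgeR called 0, against 9.23% of all tested genes, with 1 at an unadjusted p under 0.05, and DESeq2 without the offset called 2. AHCY was also lost without control replicate 1 (0.31), control replicate 2 (0.35) or SS replicate 2 (0.27).

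Of 14 tested folate enzymes and carriers other than the members, edgeR called 0 in SS+NAC against control (2.01% of all tested genes), with 0 at an unadjusted p under 0.05, and DESeq2 called 0. It called 3 in SS against control (40.0% of all tested genes) and 4 in SS against SS+NAC (42.7%), and with the offset 1 in each (9.23% and 14.5%). Without the offset, SS against control gave 1 without control replicate 2 or SS replicate 2 and 6 without SS+NAC replicate 1 or SS+NAC replicate 2, and SS against SS+NAC gave 1 without SS replicate 2. SS+NAC against control gave 1 without SS+NAC replicate 1. The median log2 fold change in SS+NAC against control was 0.01, and ALDH1L1 and FTCD were low. MTHFS, which returns a stored form of folate to the active pool, had 25 ± 1.25 CPM in control, 36.5 ± 3.56 in SS and 24.4 ± 1.87 in SS+NAC. It was higher in SS than in control (0.55 ± 0.10, adjusted p = 0.0018; 0.44 with the offset) and than in SS+NAC (0.58 ± 0.10, adjusted p = 0.0011; 0.49 with the offset).

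Of 12 tested purine synthesis genes, edgeR called 0 in SS+NAC against control (2.01% of all tested genes), with 1 at an unadjusted p under 0.05, and DESeq2 called 0. ATIC, which uses formyl-tetrahydrofolate, had 233 ± 4.55 CPM in control, 298 ± 16.8 in SS and 221 ± 6.03 in SS+NAC. It was higher in SS than in SS+NAC by 0.43 ± 0.08 (adjusted p = 0.0014), and by 0.29 with the offset (adjusted p = 0.016). In that comparison 3 of the 12 were called, against 42.7% of all tested genes, and 2 with the offset, against 14.5%, with PFAS called only there (0.43, adjusted p = 0.042). Without SS+NAC replicate 1 and without the offset the count was 7. Against control, 2 were called, with SS higher for ATIC (0.35 ± 0.08, adjusted p = 0.0042; 0.20 with the offset) and IMPDH2 (0.29 ± 0.07, adjusted p = 0.011; 0.03 with the offset), against 40.0% of all tested genes. With the offset edgeR called 0 of the 12 against control, against 9.23% of all tested genes, with 2 at an unadjusted p under 0.05, and DESeq2 without the offset called 2. Without the offset the count was 4 without SS+NAC replicate 1 or SS+NAC replicate 2, 1 without control replicate 2 or SS replicate 2, and 0 by edgeR without control replicate 1, with 2 at an unadjusted p under 0.05. ATIC was also lost without control replicate 1 (0.33), and IMPDH2 without control replicate 1 (0.29), control replicate 2 (0.31) or SS replicate 2 (0.24).

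Promoters from RefSeq (GRCh38.p14), from 250 bases before to 50 bases after a start site, were matched for 6 of the 9 members, and PSPH, SHMT2 and ALDH1L2 had no entry. They were searched on both strands for TGATGNAA, the amino acid response element, TGACNNNGC, the antioxidant response element, and CACGTG, the E-box. Of 35116 promoters, 3.62%, 13.3% and 7.26% held these letters, and of the 27305 genes with a promoter, 4.46%, 16.1% and 8.77% did. TGATGNAA occurred only in MTHFD1L, TGACNNNGC only in MTHFD2, on the minus strand, and CACGTG in MTHFD1 and MTHFD1L. For MTHFD1L 4 promoters were searched and for each other matched member 1, so MTHFD1L had more windows in which to match. PHGDH, PSAT1 and SHMT1 had no match, which says only that these letters are not in these windows. The matches are shown as 30 bases of the plus strand, with the motif in capitals, at chr6:150866346-150866375 for MTHFD1L (TGATGNAA), chr2:74198611-74198640 for MTHFD2 and chr14:64388326-64388355 for MTHFD1.

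MTHFD1L: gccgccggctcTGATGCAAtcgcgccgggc

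MTHFD2: ttccctcccgGCGCAGTCAccggcgcggtc

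MTHFD1: ccagtccctaagCACGTGggttgggttgtc

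CCAAT, the CCAAT box, was added to the search after the PSAT1 promoter had been read. PSAT1, which prompted this search, had 3 copies, at -113, -83 and -52 from its start site. The other 5 matched members also held it on a strand, and it is common, in 34.6% of all promoters and 39.7% of the genes with a promoter. The 150 bases before that start site (chr9:78296975-78297124, plus strand, GRCh38.p14) are shown because PSAT1 was called in all 3 comparisons, with the CCAAT copies in capitals. A match describes the sequence and does not show that a factor binds there.

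PSAT1: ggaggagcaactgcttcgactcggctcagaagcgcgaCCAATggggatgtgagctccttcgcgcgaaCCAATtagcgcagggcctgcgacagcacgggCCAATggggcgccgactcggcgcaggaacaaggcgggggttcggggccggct

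Markers of the cell type, 11 genes of epithelial and thyroid cells with the mesenchymal gene VIM among them, were read beside these results. PAX8, a thyroid transcription factor, had 269 ± 7.93 CPM in control, KRT8 1061 ± 51.2 CPM and VIM 5744 ± 301 CPM. EPCAM had 4.83 ± 0.56 CPM, TG 1.13 ± 0.0168 CPM and SLC5A5 1.2 ± 0.148 CPM, and CDH1 and NKX2-1 were low. The 11 markers summed to 7525 and 8018 CPM in control, 9620.1 and 10937 in SS, and 7664 and 6671 in SS+NAC, with none at 0. Most of each sum is VIM, with 5531 and 5957 CPM in control, 7155 and 8006 in SS, and 5700.3 and 5075 in SS+NAC, so the sums say little about the epithelial and thyroid genes. In SS against SS+NAC 3 of 10 tested were called, against 42.7% of all tested genes, and 4 with the offset, against 14.5%. KRT8 (0.65 ± 0.12), KRT18 (0.71 ± 0.12) and VIM (0.49 ± 0.10) were higher in SS, also with the offset (0.44, 0.41 and 0.30), where PAX8 was called as well (0.29, adjusted p = 0.017). FOXE1 (-0.80 ± 0.30), EPCAM (-0.11 ± 0.17) and SLC5A5 (-0.05 ± 0.33) had values under 0 and were not called. Without SS+NAC replicate 1 and without the offset the count was 5. In SS against control 3 of 10 tested were called, against 40.0% of all tested genes, all higher: KRT8 (0.48 ± 0.12), KRT18 (0.44 ± 0.12) and VIM (0.40 ± 0.10). With the offset their values were 0.25, 0.12 and 0.19, and edgeR called 0 of the 10, against 9.23% of all tested genes, with 4 at an unadjusted p under 0.05, while DESeq2 without the offset called 3 (and 4611 of all genes). KRT8 and KRT18 also lost their calls without control replicate 1 (both 0.43) or SS replicate 2 (0.33 and 0.29), and VIM without the same libraries (0.35 and 0.31). In SS+NAC against control edgeR called 0 of the 10, against 2.01% of all tested genes. There 1 had an unadjusted p under 0.05, and DESeq2 called 0.

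Of 8 markers of other cells, PTPRC, CD3E, PECAM1, VWF and COL1A2 were low. In each library 1 of the 8 was at 0, which was COL1A2 in control replicate 2 and CD3E in the others. The 8 summed to 718 and 738 CPM in control, 686 and 684 in SS, and 899 and 798 in SS+NAC, with COL1A1 the most abundant. COL1A1 was lower in SS than in SS+NAC (-0.34 ± 0.09, adjusted p = 0.0092), but with the offset the value was -0.0049 (adjusted p = 0.97). Without SS replicate 2 the value was again -0.34 and just missed the threshold (adjusted p = 0.051). With the offset CD68 was lower in SS than in SS+NAC instead (-0.33, adjusted p = 0.019), against -0.13 without it (adjusted p = 0.18). In SS+NAC against control edgeR called 0 of 6 tested, against 2.01% of all tested genes. There 2 had an unadjusted p under 0.05, and DESeq2 called 0. For both marker lists, their part in the result was not tested.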

How the data were processed

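Poly(A) RNA of 6 KHM-5M libraries, 2 per group, was sequenced with single-end reads. The authors mapped reads with HISAT2 2.0.4 and computed the deposited expected counts with RSEM 1.2.12 (Bowtie2 2.2.5 is also named). The deposited FPKM and TPM are the authors' RSEM values. FPKM served only to derive effective lengths. Expected counts were rounded and fitted with edgeR 4.0.16 (R 4.3.3, limma 3.58.1): TMM, filterByExpr, quasi-likelihood F test, all 6 libraries in 1 fit, Benjamini-Hochberg over 14005 genes, threshold 0.05. SE is the absolute log2 fold change over the root of F. The biological coefficient of variation was 6.74%. The length offset is a lowess (span 0.3) of each library's deviation on log length. Alternatives were DESeq2 1.42.0 (test, size factors), other filters, compared libraries only, a replicate block, Bonferroni and leaving out each library. The code was tested on simulated data. Tables and figures used Python 3.11.15, pandas 2.3.3, numpy 2.4.6 and matplotlib 3.10.9. Libraries held 17645545 and 22016655 (control), 23493415 and 23810056 (SS), and 23682740 and 22617180 (SS+NAC) counts. Calls of list genes with a library left out were tabulated after the data had been seen. Members and lists were chosen with earlier results of these data known. In each list, genes called with and without the offset are named, or else the 2 largest called, with ATF4 always named. Genes called only with the offset are named too, as are genes of the ATF4 list called against the direction of most. Both choices were made after the data had been seen. The authors' 9 group means and 9 comparison columns were not used.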

Additional observations from a re-analysis of the deposited data

How the results depend on the processing

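Each of the 27 member fold changes was refitted under 14 alternatives, 378 in all: 315 kept direction and side of the threshold, 53 lost the call, 1 gained it (PSPH, SS against SS+NAC, length offset) and 9 reversed. ALDH1L2 (-1.17 to -0.70) and MTHFD2 (-0.52 to -0.31) kept their calls in SS against SS+NAC in these 14, and by Bonferroni only ALDH1L2 did.

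With the length offset, alone or with the block, MTHFD2 (-0.04) and MTHFD1L (-0.03) reversed in SS against control and SHMT2 (-0.04) in SS against SS+NAC. Leaving out 1 library, MTHFD1L ranged from -0.11 to 0.07 in SS+NAC against control and from -0.005 to 0.18 in SS against SS+NAC. None of these values was called, and the cause was not tested.

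In SS against control, members called were 0 with the length offset, 0 with offset and block, 0 by Bonferroni and 1 to 5 leaving out 1 library. Genes called there were 1293 with the offset, 848 with offset and block, 220 by Bonferroni and 3118 to 6579 leaving out 1 library. In SS+NAC against control, members called were 0 by Bonferroni and 0 to 3 leaving out 1 library, and genes 40 and 98 to 1086. In SS against SS+NAC, members called were 1 by Bonferroni (ALDH1L2) and 2 to 5 leaving out 1 library. Genes called there were 2026 with the offset, 1344 with offset and block, 191 by Bonferroni and 3250 to 6339 leaving out 1 library. Bonferroni is stricter by construction, and for the others the cause was not tested.

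Replicate numbers recur in the groups, but nothing says that equal numbers share a culture. With the replicate number as a block, members called were 3 in SS against control (4857 genes), 2 in SS+NAC against control (211 genes), where PSAT1 lost its call (0.40, adjusted p = 0.058), and 4 in SS against SS+NAC (5136 genes). With offset and block, purine synthesis genes called in SS against SS+NAC were 0 by edgeR, with 2 at an unadjusted p under 0.05. Deviations of equal numbers correlated at 0.113 (control and SS), -0.105 (control and SS+NAC) and -0.175 (SS and SS+NAC).

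With 2 libraries per group, small differences can be missed, and a missed threshold does not show that no difference exists. No group had NAC alone. The offset removes any true change that follows length together with a technical one, and the origin of the length trend was not tested. Levels of RNA do not give protein or flux.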
